A study of Mus musculus with 4 samples.

Results

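The genes described here build ribosomes: 58 genes of ribosome biogenesis and the nucleolus, chosen by gene symbol as known members of the pathway and all found among the 16718 genes of the table. The choice used no measured value directly, but was made with earlier results of these data known. The RNA came from naive CD4+ T cells of mice, stimulated with an antibody to CD3 for 4 hours. There were 2 libraries of Zfp281 conditional knockout cells (cKO), which lack a zinc finger transcription factor, and 2 libraries of wild-type cells (WT). For the mice, the Cre driver, strain, age and number were not given in the sources used here. Every expression value is an FPKM, reads per gene normalised to gene length and to sequencing depth, and the table holds 1 value per genotype.

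Because no library has a value of its own, the spread between libraries is unknown and replicates check none of the differences. A gene is said to fall or rise in cKO where the authors' deposited table gives an FDR under 0.05. That FDR weighs one set of reads against another and says nothing of how libraries vary. Folds are ratios of cKO to WT FPKM. The 95% intervals (exact, Clopper-Pearson) rest on estimated reads, of which about 17208612 stood behind the cKO values and 17365817 behind the WT values, and they cover counting error alone. Zfp281 itself was at 0.44 FPKM in cKO and 66.3 FPKM in WT, which fits its labels. The T cell markers Cd3e (314 FPKM in cKO and 339 FPKM in WT) and Cd4 (239.8 FPKM in cKO and 249.9 FPKM in WT) were abundant. In a bulk sample, fewer cells of a type and less RNA per cell cannot be told apart.

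Ribosome production starts in the nucleolus, where RNA polymerase I transcribes the ribosomal DNA into a long precursor RNA. A large particle, the small subunit processome, folds and cuts the part of the precursor that becomes the small subunit, while a separate set of factors assembles the large subunit. Small nucleolar ribonucleoproteins (snoRNPs) guide chemical changes to the RNA, box C/D particles adding methyl groups and box H/ACA particles making pseudouridine. T cells are known to enlarge their nucleoli and raise this machinery when they leave quiescence, and MYC is a known inducer of many of its genes.

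Of the 58 genes, 54 fell in cKO, none rose and 4 did not pass. Among the 10728 genes at 1 FPKM or more in either genotype, 16.9% fell and 19.9% rose by the same rule. All 58 genes lay above 10 FPKM in both genotypes, and of the 6582 genes that reached 10 FPKM in either genotype 22.8% fell and 24.1% rose. The median ratio of cKO to WT was 0.796, against 1.003 over all genes at 10 FPKM or more, and 43 of the 58 ratios lay between 0.7 and 0.85. At least a 1.2-fold lower level was reached by 44 genes, or 75.9%, against 10.9% of the genes at 10 FPKM or more (13.2% at 1 FPKM or more). None was 1.5-fold lower, against 1.17% of genes at 10 FPKM or more (3.37% at 1 FPKM or more), and none carried the authors' own mark for a change. Added up, the 58 genes made 0.726% of all FPKM in cKO and 0.914% in WT.

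The counting intervals of 55 genes lay below 1, and those of 31 genes covered the median of the list. How far the libraries varied is not known. If each genotype's set of reads had varied by a further 5% (CV), 33 genes would still have passed as lower, against 5.66% of all genes, and at 10% none would have passed, against 0.774% of all genes. On simulated data with a CV of 10%, this test called 0% of genes changed 1.2-fold and 20% of those changed 1.5-fold. No member was 1.5-fold lower, so the outcome at 10% says little about the members. Markers of other cell types differed too. Of 5 CD8 T cell markers 3 were in the table, summing to 20.9 FPKM in cKO and 13.0 FPKM in WT, and both that reached 1 FPKM rose. Most of that sum was Cd8b1 (17.8 FPKM in cKO and 11.5 FPKM in WT), while Cd8a (0.47 FPKM in cKO and 0.28 FPKM in WT) did not pass. The 8 B cell markers summed to 19.7 FPKM in cKO and 11.6 FPKM in WT, and 2 of the 3 at 1 FPKM or more rose, while Pax5 was at 0.34 FPKM in cKO and at 0.01 FPKM, the lowest value of the table, in WT. Cd74 made the largest part of the B cell sum, with 11.9 FPKM in cKO and 7.63 FPKM in WT. The 8 measured myeloid and NK cell markers summed to 3.33 FPKM in cKO and 2.75 FPKM in WT. Among them Lyz2 rose (1.09 FPKM in cKO and 0.22 FPKM in WT) and Fcgr3 fell (0.55 FPKM in cKO and 1.45 FPKM in WT). Of 9 measured CD4 T cell markers 7 fell and 2 rose, with a median ratio of 0.909. The lowest ratios among them, Cd3g (0.732), Cd5 (0.748) and Lck (0.804), were as low as those of many of the 58 genes, and Tcf7 (1.17) and Lef1 (1.098) rose. The part of the cell mixture in the lower values of the 58 genes was not tested.

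**Figure D1:**
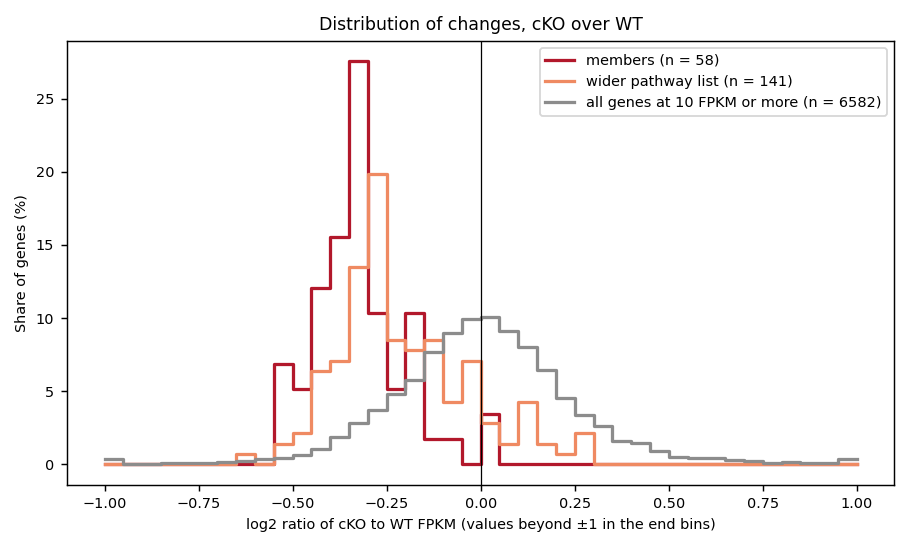
Share of genes (vertical axis, %) by log2 ratio of cKO to WT FPKM (horizontal axis, bins of equal width) for the 58 ribosome biogenesis genes, for the 141 genes of a wider list of the same pathway that reached 10 FPKM, and for all 6582 genes at 10 FPKM or more. The 58 genes form a narrow peak on the lower side, with a median ratio of 0.796, while all genes have a median of 1.003.

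Upstream sequences are shown because the genes moved together and many share some of their upstream bases with a neighbour. They are from RefSeq (GRCm38.p6), which held promoters for 50 of the 58 genes, and each is given 5′ to 3′ on the strand of the gene named first. Capitals mark 4 short motifs searched on both strands: CACGTG (the E-box that MYC and MAX bind), CCCTCCC (a G-rich element of the kind known for the human orthologue of Zfp281), CCGGAAG (the core that ETS factors bind) and GGGCGG (the GC box). None of the 4 contains another, although matches may touch or overlap. The first 3 stretches lie between divergent pairs, in which a second gene starts close by on the other strand. The last 3 are the 250 bases upstream of Nop2, the one gene in which all 4 motifs were found, and of the helicase genes Ddx47 and Ddx52, whose levels were not lower in cKO.
Ddx51 with Noc4l (chr5:110653383-110653450, plus strand): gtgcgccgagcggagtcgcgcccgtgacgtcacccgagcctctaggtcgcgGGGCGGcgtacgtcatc
Emg1 with Phb2 (chr6:124712179-124712288, minus strand): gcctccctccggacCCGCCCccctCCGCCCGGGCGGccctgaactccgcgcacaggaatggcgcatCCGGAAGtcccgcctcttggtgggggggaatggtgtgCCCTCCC
Utp18 with Mbtd1 (chr11:93885921-93886016, minus strand): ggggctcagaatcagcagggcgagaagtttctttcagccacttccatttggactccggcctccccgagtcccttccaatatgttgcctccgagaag
Nop2 (chr6:125131633-125131882, plus strand): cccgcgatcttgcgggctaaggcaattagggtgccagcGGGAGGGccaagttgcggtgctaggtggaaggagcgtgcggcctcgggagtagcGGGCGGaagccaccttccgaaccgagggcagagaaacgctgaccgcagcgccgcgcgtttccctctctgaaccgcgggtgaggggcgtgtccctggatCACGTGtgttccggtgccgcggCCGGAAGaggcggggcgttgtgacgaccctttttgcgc
Ddx47 (chr6:135011362-135011611, plus strand): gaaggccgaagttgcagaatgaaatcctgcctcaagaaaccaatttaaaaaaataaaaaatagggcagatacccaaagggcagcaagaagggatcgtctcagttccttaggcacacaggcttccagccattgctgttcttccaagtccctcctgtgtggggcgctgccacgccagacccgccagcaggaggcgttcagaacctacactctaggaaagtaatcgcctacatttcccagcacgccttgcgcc
Ddx52 (chr11:83941840-83942089, plus strand): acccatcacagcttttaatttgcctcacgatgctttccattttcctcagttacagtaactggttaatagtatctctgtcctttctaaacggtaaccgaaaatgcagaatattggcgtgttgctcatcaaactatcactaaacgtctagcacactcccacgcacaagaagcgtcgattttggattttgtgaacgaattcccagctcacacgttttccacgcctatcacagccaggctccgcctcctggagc

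In Nop2 the E-box lay 60 bases and the ETS core 38 bases before the start, whereas none of the 4 motifs was found upstream of Ddx47 or Ddx52. Over the list, the E-box was in 2 of 54 promoters (3.70%, exact 95% interval 0.452% to 12.7%), those of Nop2 and Utp18, against 6.02% of all 32851 promoters and 9.04% of those of genes at 10 FPKM or more. The G-rich element was in 14.8% (6.62% to 27.1%), against 19.7% of all promoters and 24.6% at 10 FPKM or more. The ETS core was in 15 promoters, 27.8% (16.5% to 41.6%), against 6.91% of all promoters and 16.9% at 10 FPKM or more. The GC box was in 64.8% (50.6% to 77.3%), against 32.7% of all promoters and 60.8% at 10 FPKM or more. The 15 genes with an ETS core had a median ratio of 0.833 and the 35 without one a median of 0.788, so the larger median fall was in the genes without the motif. A match is a description of letters in a window and not a binding site.

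Divergent pairs were common. In 20 of the 50 genes with a promoter (40%), the 250 bases upstream shared bases with those of a gene on the other strand, against 19.5% of genes at 10 FPKM or more and 10.8% of all genes with a promoter. Any shared base counted, and the shared stretch ran from 6 bases (Gnl3 with Pbrm1) to 230 bases (Nop14 with Grk4). Ddx51 and Noc4l, a large subunit helicase gene and a small subunit gene, face away from each other across the 68 bases printed above, with ratios of 0.795 and 0.803. For 15 pairs the neighbour was measured at 1 FPKM or more and was not itself of the list. Of these 15 neighbours 3 fell, 1 rose and 11 did not pass, with a median ratio of 1.07 beside 0.812 for the 15 members they face. By the same rule 16.9% of all genes at 1 FPKM or more fell and 19.9% rose, with a median ratio of 1.012. The neighbour's ratio was above that of the ribosome biogenesis gene in 14 of 15 pairs and above 1 in 10. Most genes lay above these members too, since the list as a whole was low. Wdr3 and Polr1c had the lowest and highest ratios of the 15 members. Of genes at 10 FPKM or more, 2.93% lay below Wdr3 and 31.1% below Polr1c. The count of 14 thus does not set divergent neighbours apart from other genes. Phb2, which encodes a prohibitin of the mitochondrial inner membrane, fell together with Emg1, with ratios of 0.898 for Phb2 and 0.888 for Emg1. Mbtd1, which encodes a chromatin reader, rose with a ratio of 1.17 while Utp18, on the other side of the same 96 bases, fell to 0.772 of WT. The exception was Ptcd3, a gene of mitochondrial translation, whose ratio of 0.857 was under the 0.886 of its neighbour Polr1a. No test of the difference within pairs was made, since the libraries have no values of their own.

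**Figure D2:**
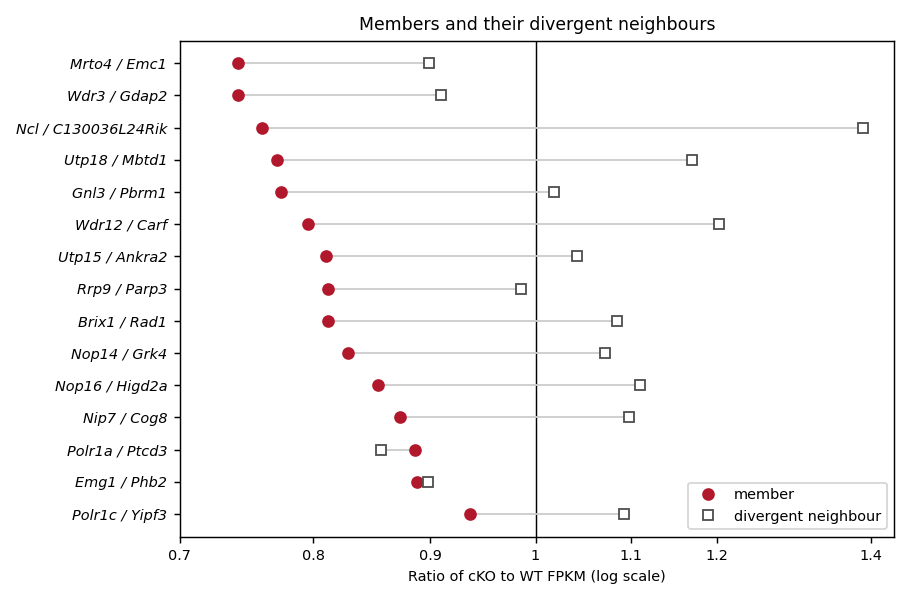
Ratio of cKO to WT FPKM (horizontal axis, log scale) for 15 ribosome biogenesis genes (filled circles) and for the divergent neighbours whose upstream bases they share (open squares). In 14 of 15 pairs the neighbour lies to the right of its partner, and 10 neighbours lie above 1. Most genes at 10 FPKM or more lay above these members too.

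Of the 3 genes of RNA polymerase I 2 fell and 1 did not pass, with a median ratio of 0.886. Polr1b, which encodes the second largest subunit (chromosome 2, 129100970 to 129128060), fell to 32.1 FPKM in cKO, against 43.0 FPKM in WT, a ratio of 0.747 (95% interval 0.707 to 0.789). Polr1a, encoding the largest subunit, was at 24.2 FPKM in cKO and 27.4 FPKM in WT, a smaller fall to 0.886 (0.840 to 0.934). The intervals of these 2 catalytic subunits did not overlap. Polr1c, whose product is shared with RNA polymerase III, was at 32.0 FPKM in cKO and 34.2 FPKM in WT and did not pass (FDR of 0.442, from the authors' deposited table).

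Other genes of polymerase I transcription, listed with earlier results of these data known, leaned the same way. Of 20 such genes 14 fell, 1 rose and 5 did not pass, with a median ratio of 0.847. By the same rule 16.9% of all genes at 1 FPKM or more fell and 19.9% rose. The lowest ratios of the 20 were those of Polr2k (0.707) and Polr2h (0.735), which encode small subunits common to the nuclear RNA polymerases. Ubtf, encoding the factor that opens ribosomal DNA for polymerase I, fell to 22.7 FPKM in cKO, against 30.2 FPKM in WT, and Rrn3, encoding the factor that recruits the polymerase, to 0.854 of its WT level. Baz2a, which encodes a subunit of the complex that silences ribosomal DNA, was the one that rose, with 48.7 FPKM in cKO and 42.7 FPKM in WT (ratio 1.14, 1.102 to 1.18). Ttf1, encoding the terminator-binding factor of polymerase I, had a ratio of 1.09 and did not pass.

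Of 24 small subunit genes 21 fell and 3 did not pass, with a median ratio of 0.791 and a range of 0.687 to 1.02. The t-UTP subcomplex binds the precursor RNA first, and its 4 genes on the list all fell. Heatr1, its largest protein, was at 35.8 FPKM in cKO and 47.7 FPKM in WT (ratio 0.751, 0.721 to 0.781). Wdr43 was at 58.1 FPKM in cKO and 76.6 FPKM in WT (0.759), and Wdr75 and Utp15 had ratios of 0.764 and 0.811. In the UTP-B subcomplex, Wdr36 fell to 28.5 FPKM in cKO, against 40.5 FPKM in WT (0.704, 0.659 to 0.753), and Wdr3 to 0.742 and Utp18 to 0.772 of WT. Utp6, from the same subcomplex, fell less, to 0.879 (0.819 to 0.943), and its interval did not overlap that of Wdr36. Ratios within this subcomplex thus differed by more than counting error.

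Utp20, encoding a very large scaffold protein of the processome (chromosome 10, 88746607 to 88826814), had the lowest ratio of the small subunit genes. It was at 11.8 FPKM in cKO and 17.2 FPKM in WT, a ratio of 0.687 (0.647 to 0.730). Rrp9, a protein of the U3 snoRNP that pairs with the precursor, was at 57.2 FPKM in cKO and 70.4 FPKM in WT (0.812). Nop14 (0.828) and its partner Noc4l (0.803) had close ratios with overlapping intervals, as did Utp14a (0.777) and the acetyltransferase gene Nat10 (0.780). The GTPase gene Bms1 (0.872) and the pseudouridine methyltransferase gene Emg1 fell less, Emg1 to 107 FPKM in cKO, against 120.2 FPKM in WT. Utp3, another processome gene, was at 44.0 FPKM in cKO and 48.5 FPKM in WT (0.907, 0.839 to 0.981). The authors' deposited table gives Utp3 an FDR of 0.0545, just over the threshold.

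Late maturation of the small subunit, in the nucleoplasm and cytoplasm, held some of the larger falls. Tsr1, whose product keeps immature particles from translating, was at 46.2 FPKM in cKO and 65.6 FPKM in WT (0.704, 0.671 to 0.740). Ltv1, a factor released before the last cut, was at 30.1 FPKM in cKO and 42.5 FPKM in WT (0.709), and Rrp12, a factor of export, at 19.97 FPKM in cKO and 27.9 FPKM in WT (0.716). Nob1, which encodes the endonuclease that makes the last cut, stood apart at 39.0 FPKM in cKO and 44.99 FPKM in WT (0.867, 0.799 to 0.940). Its interval did not overlap those of Tsr1, Ltv1 and Rrp12.

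The 2 genes that were not below WT at all were both DEAD-box RNA helicases of this step. Ddx47 (chromosome 6, 135011612 to 135023776) was at 54.4 FPKM in cKO and 53.4 FPKM in WT (1.02, 0.9502 to 1.09), and Ddx52 (chromosome 11, 83942090 to 83963088) at 21.1 FPKM in cKO and 20.9 FPKM in WT (1.01, 0.929 to 1.096). The third small subunit helicase, Ddx10, fell to 0.836 of WT (0.780 to 0.896). Across all 9 DEAD-box genes of the list 7 fell and 2 did not pass, with ratios ranging from 0.737 for Ddx21 to 1.02 for Ddx47.

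**Figure D3:**
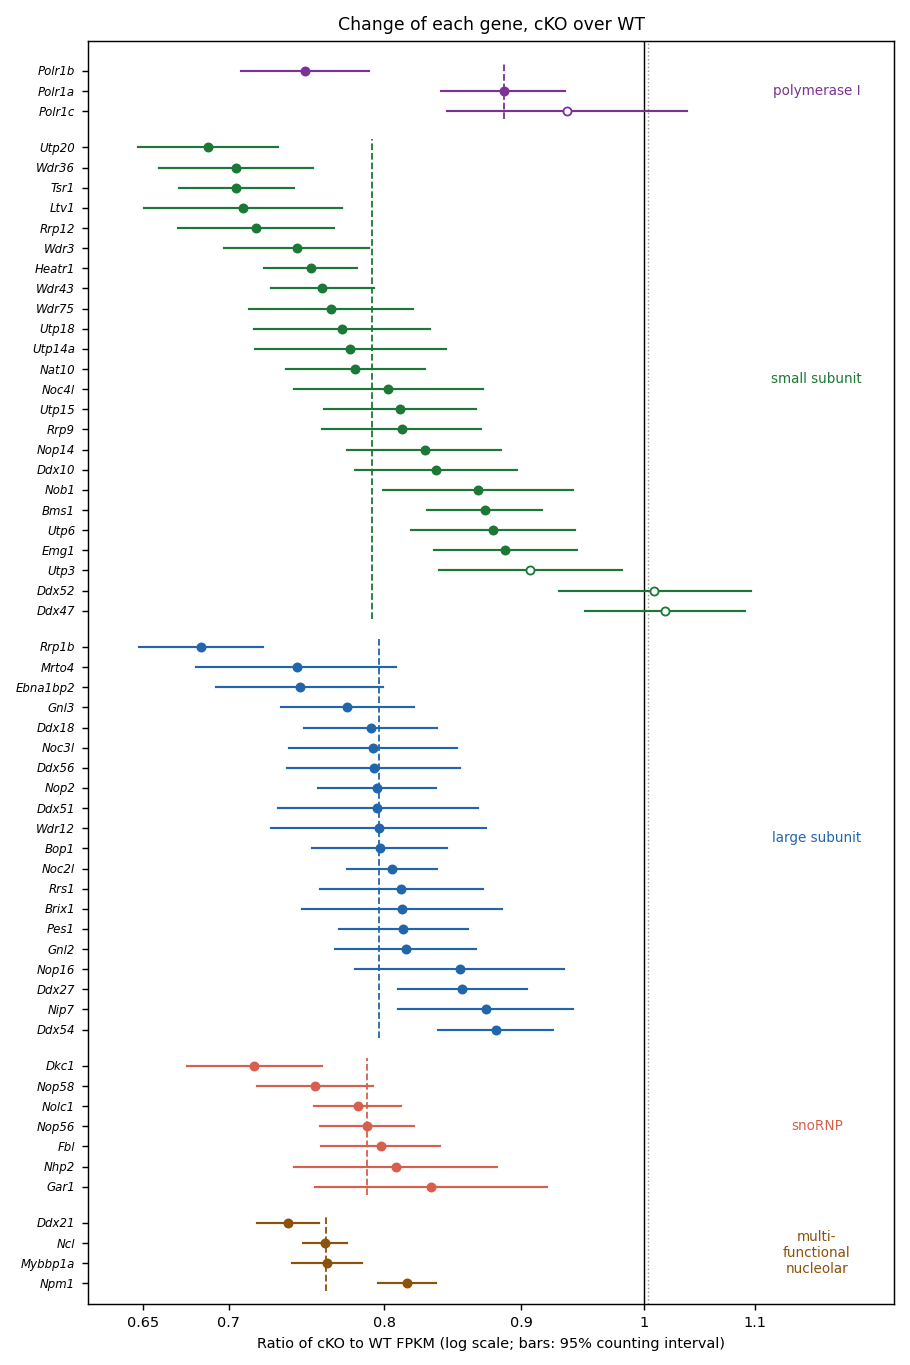
Ratio of cKO to WT FPKM (horizontal axis, log scale) for each of the 58 genes, grouped by step; bars are 95% counting intervals, filled circles are genes that fell by the deposited FDR, dashed lines are step medians and the dotted line is the median of all genes at 10 FPKM or more. The large subunit genes lie between 0.683 and 0.880, while the small subunit genes reach from 0.687 to 1.02.

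All 20 large subunit genes fell, with a median ratio of 0.797. Rrp1b (chromosome 17, 32036162 to 32062865), a nucleolar protein that also binds protein phosphatase, had the lowest ratio of the whole list, with 28.2 FPKM in cKO and 41.2 FPKM in WT (0.683, 0.648 to 0.721). The PeBoW complex, which is required to process the large subunit RNA, was nearly uniform. Its genes Pes1, Bop1 and Wdr12 had ratios of 0.813, 0.797 and 0.796, although their levels differed, with 45.3, 48.5 and 16.1 FPKM in cKO and 55.7, 60.9 and 20.2 FPKM in WT. The 5S RNP is brought to the particle with the help of Rrs1, which was at 40.9 FPKM in cKO and 50.4 FPKM in WT (0.812).

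Ebna1bp2 and Mrto4, whose product is related to a ribosomal stalk protein, had lower ratios than most, at 0.744 (0.692 to 0.799) and 0.742 (0.681 to 0.808). Among the nucleolar GTPases, Gnl3, encoding nucleostemin, was at 64.8 FPKM in cKO and 83.7 FPKM in WT (0.775), and Gnl2 at 47.6 FPKM in cKO and 58.3 FPKM in WT (0.815). Nop2, encoding a cytosine methyltransferase of the large subunit RNA, fell to 60.7 FPKM in cKO, against 76.4 FPKM in WT (0.795). Noc2l, the most abundant of the step, was at 95.5 FPKM in cKO and 119 FPKM in WT (0.805), and its partner Noc3l had a ratio of 0.792. Brix1 and Nop16 had ratios of 0.812 and 0.854. The helicase genes Ddx18, Ddx51 and Ddx56 were close to each other (0.791, 0.795 and 0.793), while Ddx27 (0.856), Ddx54 (0.880) and the assembly factor gene Nip7 (0.873) fell less.

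The 7 snoRNP protein genes of the list all fell. Fibrillarin, the methyltransferase of the box C/D particles, is encoded by Fbl, which was at 135 FPKM in cKO and 169 FPKM in WT (0.798, 0.758 to 0.840). Its partners Nop56, at 131 FPKM in cKO and 166 FPKM in WT, and Nop58, at 81.6 FPKM in cKO and 108 FPKM in WT, had ratios of 0.788 and 0.754, and the 3 intervals overlapped. Among the box H/ACA genes, Dkc1, which encodes the pseudouridine synthase dyskerin and lies on the X chromosome, was at 40.9 FPKM in cKO and 57.2 FPKM in WT (0.715, 0.675 to 0.758). Nhp2 was at 55.3 FPKM in cKO and 68.4 FPKM in WT (0.808), and Gar1 at 33.7 FPKM in cKO and 40.5 FPKM in WT (0.833, 0.754 to 0.920). The interval of Dkc1 overlapped that of Gar1 by a small margin. Nolc1, a chaperone of both kinds of particle, was at 77.7 FPKM in cKO and 99.4 FPKM in WT (0.782).

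The abundant nucleolar proteins with several roles also fell. Nucleophosmin, a chaperone that holds the outer nucleolus together, is encoded by Npm1, the most abundant gene of the list, with 461 FPKM in cKO and 565 FPKM in WT (0.816, 0.795 to 0.836). Ncl, encoding nucleolin, was at 129.7 FPKM in cKO and 171 FPKM in WT (0.760, 0.746 to 0.775), on an estimated 18642 reads in cKO and 24744 reads in WT. Ddx21, a helicase that acts in polymerase I transcription and in RNA processing, was at 114 FPKM in cKO and 155 FPKM in WT (0.737, 0.717 to 0.756). Mybbp1a, which encodes a nucleolar partner of MYB and p53, was at 101 FPKM in cKO and 133 FPKM in WT (0.762). With these read numbers the intervals of Npm1 and Ddx21 did not overlap, so the size of the fall differed between them by more than counting error.

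**Figure D4:**
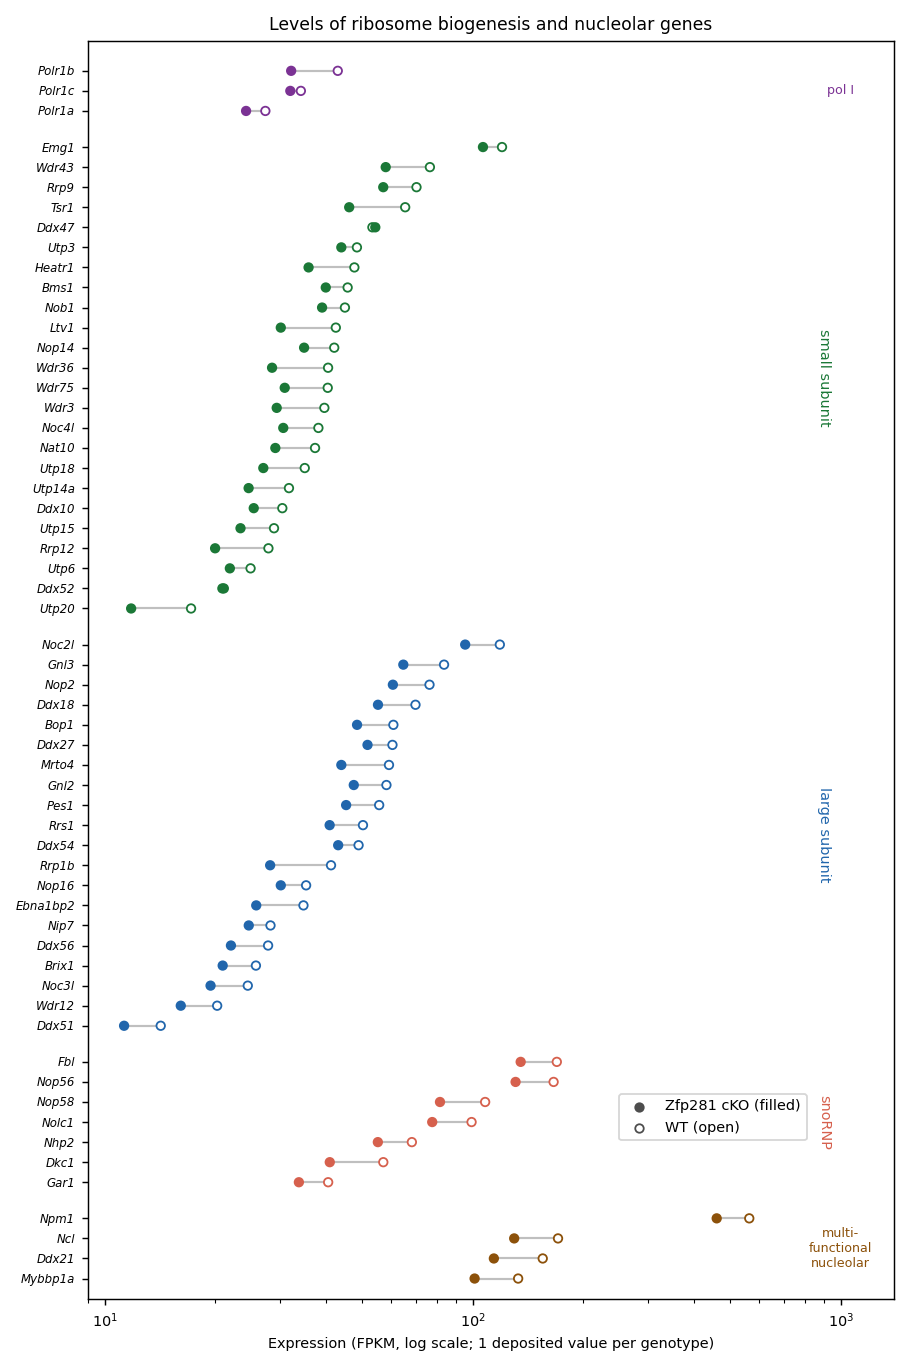
Expression in FPKM (horizontal axis, log scale) of each of the 58 genes in Zfp281 cKO cells (filled circles) and WT cells (open circles), 1 deposited value per genotype, grouped by step. Levels run from 11.3 to 461 FPKM in cKO and from 14.2 to 565 FPKM in WT, and the filled circle lies left of the open one for 56 of the 58 genes.

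The order of the levels was nearly the same in both genotypes, with a Spearman rho of 0.986 across the 58 genes. Across the list, which is no set of independent replicates, the log2 ratio correlated with the log2 of the mean FPKM at r = -0.0443 (rho = -0.0659) and with the log2 of the deposited length at r = -0.319 (rho = -0.339). The genes lie on 18 chromosomes, with 9 on chromosome 11 and 6 on chromosome 1, where Zfp281 also lies. Some values carry limits of annotation. The deposited length of Ncl, 8257 bases, matches its longest coding transcript in GENCODE M21 (8202 bases), while the shortest has 661 bases, so the FPKM of Ncl depends on which model the reads came from. Transcript use in each genotype was not measured. Npm1 is known for processed pseudogene copies, which could split its reads. For 13 of the 58 genes an exon overlaps one of an expressed gene on the other strand, Nop56 with Idh3b and Dkc1 with Mpp1 among them, and whether reads were assigned by strand was not given in the sources used here.

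Further genes of the pathway showed the same direction with more exceptions. Together 146 such genes were measured at 1 FPKM or more, from lists of known members that leave out the 58. Of them 95 fell, 4 rose and 47 did not pass, with a median ratio of 0.841. Beside this count and those of the lists that follow, 16.9% of all genes at 1 FPKM or more fell and 19.9% rose. Among 40 further small subunit genes 24 fell and 16 did not pass. Pwp2, another UTP-B gene, was at 26.5 FPKM in cKO and 37.7 FPKM in WT (0.703), and Mphosph10, encoding a protein that joins Imp3 and Imp4 on the U3 snoRNA, had a ratio of 0.734. Imp3 itself had a ratio of 1.098 and Rrp36 of 1.165, and neither passed.

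Among 60 further large subunit genes 43 fell, 2 rose and 15 did not pass. Rrp15 had the lowest ratio, with 20.6 FPKM in cKO and 32.0 FPKM in WT (0.644, 0.570 to 0.729), followed by Ccdc86 (0.692). The 2 that rose were Gltscr2, also known as Nop53, which recruits the exosome to the particle, with 262 FPKM in cKO and 219 FPKM in WT (1.195, 1.154 to 1.237), and Sbds, whose product removes an anti-association factor from the finished large subunit, with 42.1 FPKM in cKO and 35.4 FPKM in WT (1.19, 1.09 to 1.30). Of 12 further snoRNP genes 6 fell, 1 rose and 5 did not pass. The AAA ATPase gene Ruvbl1 (0.782) and Nufip1 (0.787), both of snoRNP assembly, had the lowest ratios, while Rpap3, a member of the same chaperone machinery, rose to 12.4 FPKM in cKO, against 10.2 FPKM in WT. Pih1d1, also of this machinery, had a ratio of 1.13 and did not pass.

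Exonucleases trim the precursor RNA, among them the nuclear exosome. Of 14 genes of the exosome, its cofactors and the separate exonuclease Xrn2, 8 fell and 6 did not pass, all with ratios below 1 (0.787 to 0.944). Xrn2 was among those that fell, with a ratio of 0.888. Dis3, encoding a catalytic subunit, was at 17.6 FPKM in cKO and 22.4 FPKM in WT, and the cofactor gene C1d had a ratio of 0.795. At the other end, Exosc4 (0.929) and Mphosph6 (0.944) did not pass.

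The proteins that make up the ribosome itself are encoded by separate genes. Of 81 cytosolic ribosomal protein genes at 1 FPKM or more 9 fell, 35 rose and 37 did not pass. Their median ratio was 1.03. In a recomputed read test with all ratios centred on the median gene, 15 were lower and 26 higher (all genes, 2149 lower and 2061 higher). With upper quartiles made equal, 9 were lower and 40 higher (all genes, 1874 lower and 2391 higher). The cytosolic ribosomal protein genes have many near-identical pseudogene copies, so their reads are uncertain. Of 77 mitochondrial ribosomal protein genes 15 fell, 1 rose and 61 did not pass, with a median ratio of 0.943. Of all genes at 1 FPKM or more 16.9% fell and 19.9% rose. The 19.5% of mitochondrial ribosomal protein genes that fell was near that share of all genes. The difference between the lists was not tested. Of the growth regulators set beside the pathway, Myc was at 121 FPKM in cKO and 140.0 FPKM in WT (0.864, 0.832 to 0.897). Mxd4, encoding a repressor that competes with MYC for MAX, rose to 24.96 FPKM in cKO, against 14.5 FPKM in WT (1.72, 1.49 to 1.99), and the kinase genes Pim1 and Pim2 rose with ratios of 1.54 and 1.17. Max (0.939), Mnt (1.05), Mtor (0.999), Rptor (0.981) and Rps6kb1 (0.972) did not pass.

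**Figure D5:**
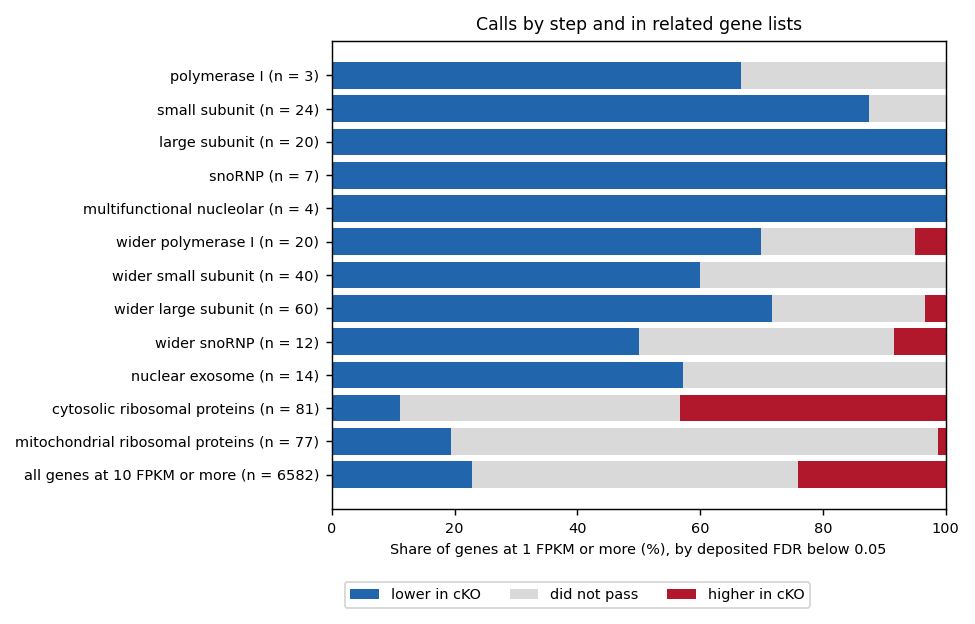
Share of measured genes (horizontal axis, %) that were lower, did not pass or were higher in cKO by a deposited FDR below 0.05, for the 5 groups of the 58 genes, for further genes of the pathway, for ribosomal protein genes and for all genes at 10 FPKM or more; the nuclear exosome bar includes Xrn2. Among the 58, all large subunit, snoRNP and multifunctional genes were lower, against 22.8% of all genes at 10 FPKM or more.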

How the data were processed

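Per the labels' protocols, total RNA was sequenced on a BGISEQ-500 platform, with Bowtie2 2.2.5 and the mm10 build listed in the submitters' processing notes. Quantification, annotation, strand setting and test were not given in the sources used here. In all, the authors deposited 1 FPKM value per gene and genotype, and nothing per the file headers says whether it joins libraries. Per the file headers there is also a log2 fold change, which matches log2 of cKO over WT FPKM. The deposited p-value is the authors', and their FDR, handled as a score, reaches 1.03. The lowest value, 0.01, was taken as 0 in the read estimates and the marker sums, and was kept as 0.01 in ratios.

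Reads were estimated from the FPKM of genes seen by a single read (90.6% of 256 such genes within 10%), which set an offset of 36 bases. The worth of a read, 56.7 FPKM bases, was then fitted to the deposited p-values. A recomputed read test then matched those (r = 0.999 of log10 p over 16707 genes), in part because it was fitted. Intervals take the depth ratio, 0.991, as exact. PCR duplicates are not known, so intervals cover counting error only.

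The members and lists were chosen with earlier results of these data known. All 58 members could be named. From each further list of pathway genes the text names the 2 lowest and 2 highest ratios at 5 FPKM or more in either genotype, the growth regulators, Zfp281 and Myc; the divergent neighbours and the overlapping genes were chosen after their values were seen. Calls use genes at 1 FPKM or more. Alternatives were other filters, pseudocounts of 1 and 0.1, scalings, fold minimums and an assumed CV between sets of reads, whose test was tested on simulated data. With a CV of 10% added to those data and none assumed, 38.1% of unchanged genes were called. With a CV of 5% both added and assumed, 10% of 50 genes changed 1.2-fold were called. With 10% both added and assumed, 0% of 50 such genes were called. Python 3.11.15, numpy 2.4.6, scipy 1.17.1 and pandas 2.3.3 were used.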

Additional observations from a re-analysis of the deposited data

How the results depend on the processing

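The count of 54 members lower and 0 higher was within 1.5 times of the main count with ratios centred on the median gene (55 lower) and with upper quartiles made equal. With no filter and at 10 FPKM or more the count could not change. All members lay above 10 FPKM, and these settings kept the deposited FDR. Beside that 0, no member was higher in the recomputed read tests either, at any assumed CV. That outcome was set in advance. Only Ddx47 (1.018) and Ddx52 (1.009) had ratios above 1, both with intervals that cover 1, and an assumed CV only adds spread. The median ratio of members was 0.796 as deposited and 0.787 when ratios were centred. No member that passed changed direction under any scaling or pseudocount, but these settings moved ratios too little to do so. Emg1, with the highest ratio of those that passed, had 0.877 when centred and 0.893 with upper quartiles made equal. Ddx52, which did not pass, had a ratio of 1.009 as deposited and 0.9973 when centred, so that 57 rather than 56 of 58 lay below WT. The stricter size rules ended the calls of members. By the authors' own marks 0 members and 0 further pathway genes were lower and 0 further genes higher. Among all genes those marks were 60 lower and 63 higher. With the FDR and 1.5-fold or more 0 members were lower, and of the further genes 1 was lower and 0 higher (all genes, 211 lower and 325 higher). With the FDR and 1.2-fold or more 44 members were still lower and 0 higher. Of the further genes 63 were lower and 1 higher by that rule (all genes, 957 lower and 1230 higher). An assumed CV of 5% left 33 members lower (5.66% of all genes), 32 further genes lower and 0 higher, and a CV of 10% left 0 members lower (0.774% of all genes), 0 further genes lower and 0 higher. At 10% the folds of the members were too small to pass. Leaving out each replicate was not run, and no paired analysis was possible because the table has 1 column per genotype and none per library.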
